A study of Mus musculus with 6 samples.

Results

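Gene-flanking accessible sites are the ATAC-seq peaks that lie just outside protein-coding genes, over 1 kb and up to 10 kb from the nearest gene end. They were chosen by position alone: on chromosomes 1 to 19, outside every protein-coding gene body, over 1 kb from both ends of every annotated gene of any kind, and with the nearest protein-coding gene end at most 10 kb away. This rule took 6982 of the 75108 peaks on those chromosomes, in a list of 77629 peaks in all. Distances run from the edge of a peak to the annotated end of a gene. ATAC-seq finds open chromatin by letting the Tn5 transposase insert adapters into accessible DNA. The cells were E14 mouse embryonic stem cells with an NSD1-dTAG knock-in, a tag through which the compound dTAG-13 directs NSD1, a histone H3 lysine 36 methyltransferase, to degradation. They grew in 2i/LIF medium on gelatin, and the analysed sample is that at 0 h, without treatment. The other 5 samples are, by their titles, the same stem cells exposed to dTAG-13 for 1, 6 or 24 h, and day 6 embryoid bodies grown with dTAG-13 or without it. The treatment labels give 6 h for all 3 of the exposed stem cell samples, and the protocol gives a dose of 500 nM. They were not analysed here, and the values below say nothing of what the loss of NSD1 does.

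Sequence close to a gene but outside its promoter is where many short-range enhancers, silencers and boundary elements lie. In embryonic stem cells such elements bind the pluripotency factors OCT4, SOX2, NANOG, ESRRB and Krüppel-like factors, together with STAT3, which acts downstream of LIF. An open site beside a gene may act on that gene, on another gene or on none, and ATAC-seq alone does not tell which.

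The strength of a peak is given by its summit pileup and by the authors' fold enrichment. Pileup means how many reads or fragments cover the highest base of a peak (which of the 2 the sources do not say). Fold divides that pileup by the background around the peak, with 1 added to each. On chromosomes 1 to 19 the median pileup was 23, with quartiles of 14 and 45, and the lowest was 6, so sites below that depth were not detectable. Of 8 embryonic stem cell markers 7 had a peak within 1 kb of a gene end, with a summed pileup of 735, and Esrrb had none. Of 8 fibroblast or feeder markers 4 had one, with a summed pileup of 82, and Col3a1, Acta2, Lum and Dcn had none. Over all protein-coding genes 68.1% had such a peak, and 8 genes per list are too few to set either count apart from that share. Gene ends are the outermost annotated ones, so a peak at a transcript start inside a gene was not counted. There was 1 library and no replicate, so no test was made and no p-value is given. All intervals below are 95% intervals that cover counting error or the spread over the peaks of this library, and none covers differences between cultures.

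The sequence under a gene-flanking peak could be read only where RefSeq lists a transcript start there. Internal starts of long non-coding RNAs (lncRNAs) are such places, because the rule keeps peaks away from the ends of a gene but not from the inside of a non-coding one. In all, 8 of the 6982 peaks overlapped such a 300-base start window, and in 6 of them the summit lay inside it. The 4 tallest of these 6 are shown because they hold the summit of an accessible site. The windows of Gm30296 and 2500002B13Rik lay wholly inside the peak. Inside it lay 239 of the 300 bases for 5930403N24Rik and 166 for Gm40929. CpG and motif counts below are over whole windows. Each is given 5′ to 3′ on the strand of its lncRNA, from RefSeq on GRCm38.p6, with the summit base and up to 20 bases on either side in capitals. The windows are chr12:102730437-102730736 (plus strand) of Gm30296, chr10:37140820-37141119 (plus strand) of 5930403N24Rik, chr8:57505565-57505864 (plus strand) of 2500002B13Rik and chr13:43173277-43173576 (plus strand) of Gm40929.
Gm30296: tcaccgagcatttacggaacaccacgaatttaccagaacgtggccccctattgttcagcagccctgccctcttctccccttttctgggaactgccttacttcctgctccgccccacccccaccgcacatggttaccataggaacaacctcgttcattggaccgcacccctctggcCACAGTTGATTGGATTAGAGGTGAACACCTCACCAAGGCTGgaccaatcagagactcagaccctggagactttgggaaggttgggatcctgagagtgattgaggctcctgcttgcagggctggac
5930403N24Rik: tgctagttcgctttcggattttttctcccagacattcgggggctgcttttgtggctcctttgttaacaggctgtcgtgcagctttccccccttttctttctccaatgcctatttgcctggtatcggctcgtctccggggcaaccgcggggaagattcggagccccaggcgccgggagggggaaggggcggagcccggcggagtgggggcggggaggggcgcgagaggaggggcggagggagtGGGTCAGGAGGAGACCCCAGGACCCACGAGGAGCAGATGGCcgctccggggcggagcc
2500002B13Rik: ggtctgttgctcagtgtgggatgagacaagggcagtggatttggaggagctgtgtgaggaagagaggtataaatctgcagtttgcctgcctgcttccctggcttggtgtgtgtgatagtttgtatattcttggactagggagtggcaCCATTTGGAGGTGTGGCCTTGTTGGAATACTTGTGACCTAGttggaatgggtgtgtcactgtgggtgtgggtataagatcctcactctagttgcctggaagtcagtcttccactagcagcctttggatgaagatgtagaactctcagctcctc
Gm40929: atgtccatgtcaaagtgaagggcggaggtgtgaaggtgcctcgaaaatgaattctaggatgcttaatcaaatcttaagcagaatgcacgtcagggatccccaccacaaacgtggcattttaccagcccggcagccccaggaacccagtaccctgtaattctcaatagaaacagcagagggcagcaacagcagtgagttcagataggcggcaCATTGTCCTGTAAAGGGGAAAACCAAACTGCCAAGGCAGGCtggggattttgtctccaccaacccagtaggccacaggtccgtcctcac

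The peak over the Gm30296 window had a pileup of 152 (exact Poisson interval 129 to 178) and lay 8.76 kb from Gm20604. That over the 5930403N24Rik window had a pileup of 102 (83.2 to 124) and lay 1.96 kb from Marcks, which encodes an actin-binding substrate of protein kinase C. The other two were low, with a pileup of 30 (20.2 to 42.8) at 5.87 kb from Hmgb2, a chromatin protein gene, and of 20 (12.2 to 30.9) at 1.91 kb from Tbc1d7. The 4 windows differed in composition: that of 5930403N24Rik held 23 CpG dinucleotides, that of Gm30296 held 8, that of Gm40929 held 7 and that of 2500002B13Rik held 0. Short motifs were searched on both strands, with N for any base. GGGNGTGG, a pattern of the kind bound by Krüppel-like factors, stood in 3 of the 6 windows and in 17.7% of 31396 RefSeq start windows on these chromosomes (14.2% of lncRNA windows). TTCNNNGAA, of the STAT kind, stood in 1 of 6 and in 8.35% of all windows. ACAAAG, of the SOX kind, stood in 1 of 6 and in 18.6%, and a core pattern of CTCF sites in 1 of 6 and in 7.87%. ATGCAAAT (1.75% of all windows), TGANTCA (7.84%) and CAAGGTCA (1.54%) were in none of the 6. A match is a string of letters and not evidence of binding, and with 6 windows no share can be set against the others.

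Gene-flanking sequence was more densely covered with accessible sites than sequence farther out, and far less densely than the gene ends themselves. Gene-flanking peaks made up 9.30% of peaks (Wilson 9.09 to 9.51). The other peaks lay within 1 kb of an end of any annotated gene (26.8%), in protein-coding bodies (37.9%), over 10 and up to 100 kb from protein-coding genes (17.5%) or over 100 kb away (8.46%). To allow for how much sequence each class has, peaks were counted per Mb of annotated chromosome that meets the same rule. Gene-flanking sequence came to 190.5 Mb and held 36.7 peaks per Mb (exact Poisson 35.8 to 37.5). Gene bodies held 30.9 (30.5 to 31.3), sequence at 10 to 100 kb held 26.2 (25.8 to 26.7), and sequence over 100 kb away held 9.43 (9.20 to 9.66). The gene-flanking density was thus 1.19 times that of bodies, 1.40 times that at 10 to 100 kb and 3.89 times that over 100 kb, with intervals that do not overlap. Sequence in which no peak can be called, such as assembly gaps, was not taken out. Its part in these ratios was not tested. At gene ends the density was 130.9 peaks per Mb. Counting peaks of pileup 20 or more, the ratios were 1.34, 1.60 and 5.005. With a pileup of at least 50 they were 1.40, 1.76 and 5.47.

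The sites beside genes were slightly taller and slightly narrower than those farther out, and the authors' fold ordered them the other way. The median pileup was 22 at gene-flanking peaks (quartiles 14 and 38), against 20 in gene bodies, 19 at 10 to 100 kb, 18 over 100 kb away and 45 at gene ends. The median fold was 6.37 at gene-flanking peaks (interval of the median 6.21 to 6.52), against 6.37 in bodies, 6.95 at 10 to 100 kb, 7.39 over 100 kb away and 9.06 at gene ends. The background that enters the fold moved with position: its median was 2.23 at gene-flanking peaks, 1.91 in bodies, 1.57 at 10 to 100 kb, 1.302 over 100 kb away and 4.099 at gene ends. The higher background at gene-flanking peaks lowers their fold by construction. The median width was 413 bp (405 to 422) at gene-flanking peaks, against 421 bp (418 to 426) in bodies, 429 bp (424 to 434) at 10 to 100 kb and 751 bp at gene ends. Widths of gene-flanking and gene-body peaks did not differ beyond these intervals.

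Tall sites were uncommon among them. A pileup of 100 or more was reached by 217 gene-flanking peaks (3.11%, Wilson 2.73 to 3.54), where 6.5% of all peaks on chromosomes 1 to 19 reached it. The share was 2.79% in bodies (2.60 to 2.98), 2.69% at 10 to 100 kb (2.43 to 2.98), 2.05% over 100 kb away (1.73 to 2.42) and 16.8% at gene ends. Of the gene-flanking peaks 2993 (42.9%) had a pileup under 20, and 318 (4.55%) were 1000 bp wide or more.

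**Figure D1:**
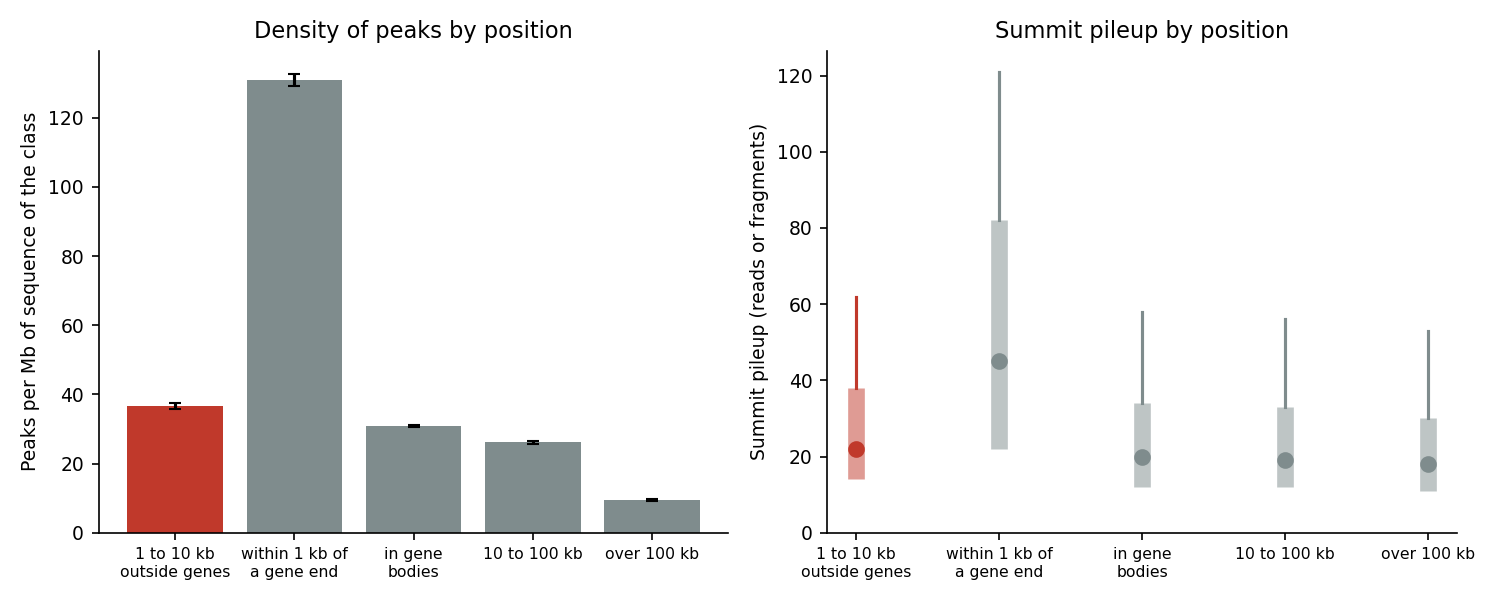
Density of peaks (left, peaks per Mb of sequence of each class, bars with exact Poisson 95% intervals) and summit pileup (right, dots are medians, thick bars the quartiles, thin lines reach the 90th percentile) in 5 position classes of chromosomes 1 to 19. Gene-flanking peaks (red) stand at 36.7 per Mb and a median pileup of 22, below the gene ends and above the other 3 classes.

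Within the window the pooled density was lowest at 3 to 4 kb and similar in the nearest and the farthest step. It was 38.7 peaks per Mb (36.4 to 41.0) at 1 to 2 kb, 31.2 (29.0 to 33.5) at 3 to 4 kb, which was the lowest of the 9 steps of 1 kb, and 36.9 (34.0 to 40.0) at 9 to 10 kb. The ratio of the nearest to the farthest step was 1.05, against 1.14 when peaks were placed by their summits and 1.24 among peaks with a pileup of at least 20. The median pileup was 24 (23 to 25) at 1 to 2 kb and 21 (19 to 22) at 9 to 10 kb. The median fold was 5.72 (5.59 to 6.02) in the nearest step and 6.95 (6.66 to 7.39) in the farthest, while the median background was 2.94 and 1.76. At the inner limit, 817 peaks 1000 to 1500 bp from any gene end had a median pileup of 25, and 3221 peaks just outside the rule, over 500 and up to 1000 bp away, had one of 24. At the outer limit the median pileups were 21 for the 591 peaks at 9 to 10 kb and 20 for 527 peaks at 10 to 11 kb. The outer limit thus does not fall at a step in peak height. At the inner limit the 2 sets are unlike, because peaks just outside the rule may also lie in protein-coding bodies, so a step there cannot be judged.

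The 2 sides of a gene differed in density. The start side is the side where transcription begins, and the far-end side the one where it stops. Strand came from the RefSeq promoter table, which lacks chromosome 18. On the other 18 chromosomes it gave a side for 5510 of 6773 gene-flanking peaks (81.4%). On the start side lay 2550 peaks, or 31.9 per Mb (30.7 to 33.1), and on the far-end side 2960, or 41.7 per Mb (40.2 to 43.2), a ratio of 0.77 (0.73 to 0.81). The start side was the sparser one close to the gene: at 1 to 2 kb it had 29.7 peaks per Mb (26.6 to 33.0), against 48.0 (44.0 to 52.3) on the far-end side. At 3 to 4 kb the start side had 23.4 (20.5 to 26.7) and the far-end side 41.4 (37.3 to 45.8). At 9 to 10 kb the densities were 35.3 (31.0 to 40.03) and 37.9 (33.0 to 43.3), intervals that overlap.

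This difference varied with peak height. With a pileup of at least 20 the start side had 19.5 peaks per Mb and the far-end side 21.6, a ratio of 0.90 (0.84 to 0.97). With a pileup of at least 50 the start side had 6.01 and the far-end side 5.18, a ratio of 1.16 (1.01 to 1.33). There the order was the reverse, but this limit was chosen after values were seen and the interval comes close to equal densities. Start-side peaks were also the taller ones, with a median pileup of 24 (23 to 25) against 20 (20 to 21). Close to genes, at 1 to 4 kb, the start side was the sparser one also among peaks with a pileup of at least 20, with 19.3 per Mb (17.8 to 20.9) against 24.3 (22.6 to 26.2) on the far-end side. Among those with at least 50 the densities there were 6.48 (5.63 to 7.43) and 5.56 (4.75 to 6.47), intervals that overlap. At genes with a peak at their start, the density at 1 to 4 kb was 0.66 times (0.60 to 0.74) that at 4 to 10 kb, but 0.96 times (0.85 to 1.08) among peaks whose pileup was 20 or more. At genes without a peak at their start it was 1.07 times (0.92 to 1.24). The median background of start-side peaks was 4.70 at 1 to 4 kb and 2.05 at 4 to 10 kb, and 2.15 and 1.87 on the far-end side. A higher background raises the pileup that a site needs to be listed, and its part in the lower density close to gene starts was not tested.

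**Figure D2:**
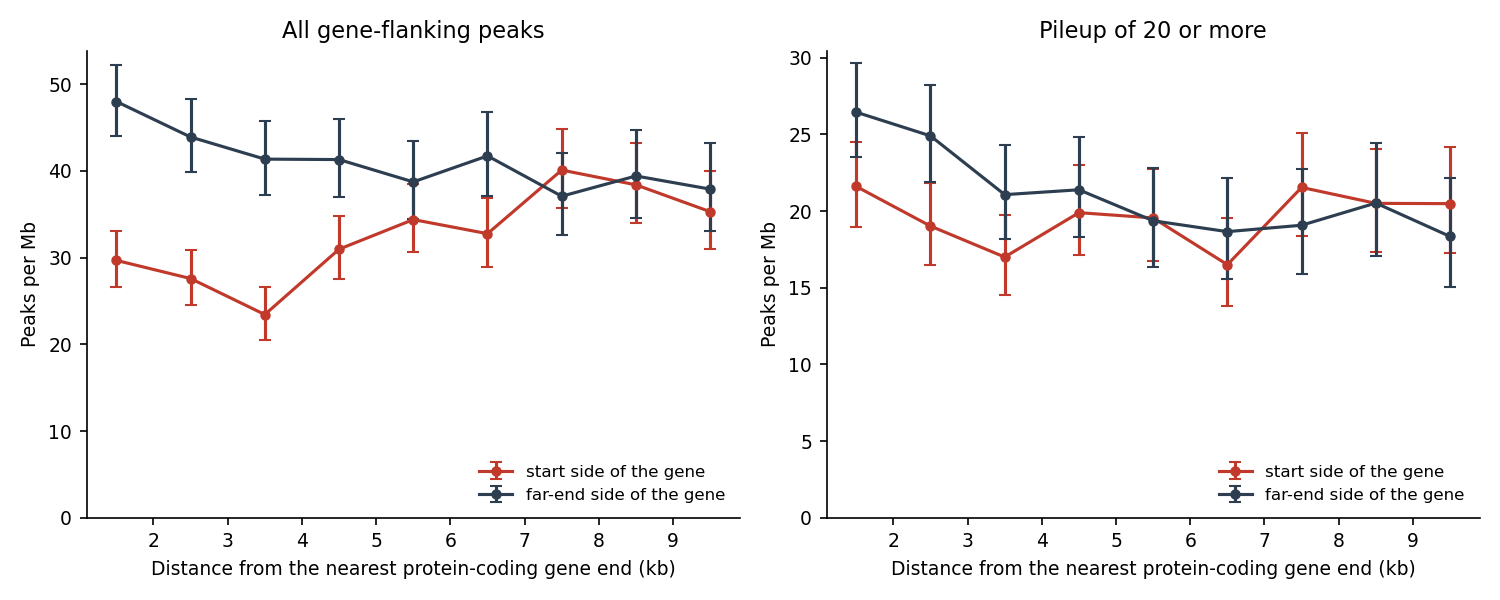
Gene-flanking peaks per Mb of reachable sequence (y axis) against distance from the nearest protein-coding gene end in steps of 1 kb (x axis), on the start side (red) and the far-end side (dark) of genes with known strand, for all peaks (left) and for peaks with a pileup of 20 or more (right). Error bars are exact Poisson 95% intervals: on the left the intervals of the sides do not overlap in any step up to 5 kb nor at 6 to 7 kb, and on the right only those at 2 to 3 kb do not.

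On the far-end side the density was higher close to the gene, with 44.7 peaks per Mb (42.3 to 47.1) at 1 to 4 kb and 39.5 (37.6 to 41.4) at 4 to 10 kb, a ratio of 1.13 (1.05 to 1.22). The ratio was 1.24 (1.12 to 1.37) with a pileup of at least 20, and 1.13 (0.92 to 1.40) with at least 50, an interval that includes equal densities. The direction depended on the gene's own far end. Without a peak there the densities were 43.8 (41.3 to 46.4) at 1 to 4 kb and 35.6 (33.7 to 37.6) at 4 to 10 kb, a ratio of 1.23 (1.14 to 1.33). With a peak there they were 50.8 (43.8 to 58.7) and 71.4 (63.8 to 79.7), a ratio of 0.71 (0.59 to 0.85), and of 0.69 (0.54 to 0.87) with a pileup of at least 20. Far-end flanks beside an accessible far end were thus the denser ones, above all beyond 4 kb.

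Genes with accessible ends had the denser flanks. Of the gene-flanking peaks 77.2% (76.2 to 78.1) had as nearest gene one with a peak within 1 kb of either end, although such genes held 61.3% of the gene-flanking sequence. Of all 20661 protein-coding genes 68.1% had one. Beside genes with no gene-end peak there were 21.7 gene-flanking peaks per Mb (20.6 to 22.7). The density was 35.6 (32.3 to 39.1) where the tallest gene-end peak had a pileup under 20, 41.8 (39.7 to 44.02) at 20 to 49, 48.8 (46.7 to 50.9) at 50 to 99 and 52.2 (49.5 to 55.03) at 100 or more. The ratio of the last to the first was 2.41, and it was 3.10 among flanking peaks with a pileup of at least 20 and 4.24 among those with at least 50. Peak height differed less, with a median flanking pileup of 19 (18 to 20) beside genes with no gene-end peak and 25 (24 to 27) beside those with the tallest ones. The median fold ran the other way, with 6.97 beside the first of these and 5.94 beside the second. The median background of the flanking peaks was 1.47 in the lowest and 2.83 in the highest of these classes, and its part in these differences was not tested.

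**Figure D3:**
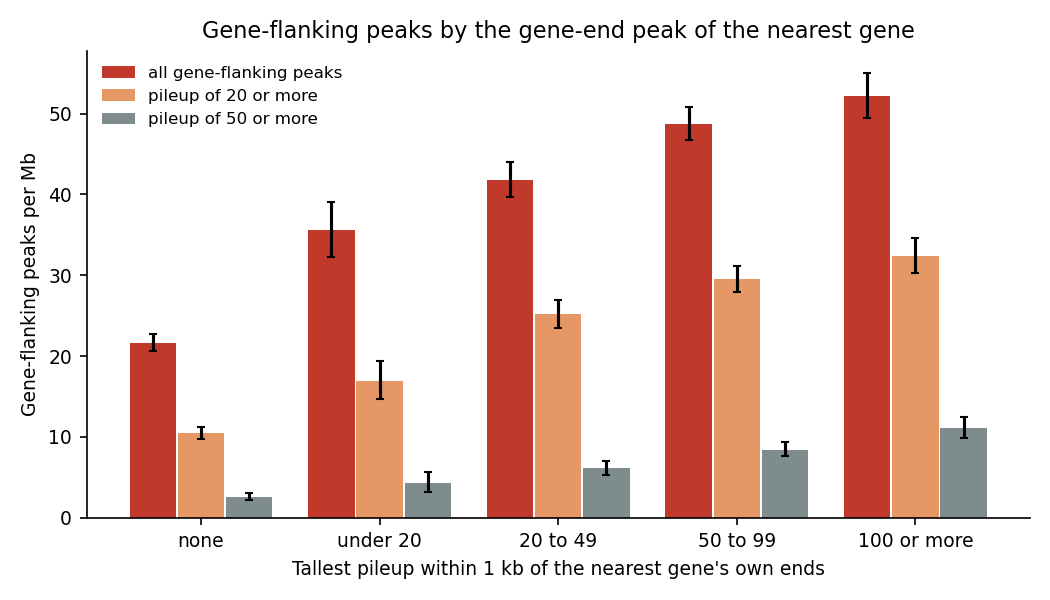
Density of gene-flanking peaks (y axis, peaks per Mb of reachable sequence, bars with exact Poisson 95% intervals) by the tallest pileup within 1 kb of the nearest gene's own ends (x axis). Bars show all gene-flanking peaks (red), those with a pileup of 20 or more (orange) and those with 50 or more (grey), and all 3 kinds are densest beside genes with the tallest end peaks.

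The CpG content of the promoter went along with this. It was taken as the ratio of observed to expected CpG dinucleotides in the 300-base RefSeq start window, the highest one per gene, and was known for 81.7% of protein-coding genes on the 18 chromosomes that the table covers. Among genes with a gene-end peak, the density of gene-flanking peaks was 41.03 per Mb (36.8 to 45.6) where the ratio was under 0.3, 39.4 (36.5 to 42.4) at 0.3 to 0.6 and 48.9 (47.2 to 50.6) at 0.6 or more. Among genes without one, the values in the same order were 18.1 (16.8 to 19.4), 26.5 (23.4 to 29.8) and 38.9 (33.7 to 44.7). Genes with a CpG-rich start window thus had dense flanks even where their outermost ends had no peak. Such a window can lie inside the gene, away from both ends, and whether it was itself open was not examined. The promoters of Socs3, Nanog and Olfr1057, genes with 4, 3 and 2 gene-flanking peaks, show a CpG-rich and 2 CpG-poor windows, with each CpG in capitals. They come from RefSeq on GRCm38.p6, at chr11:117969317-117969616 (minus strand) for Socs3, chr6:122707239-122707538 (plus strand) for Nanog and chr2:86375361-86375660 (minus strand) for Olfr1057.
Socs3: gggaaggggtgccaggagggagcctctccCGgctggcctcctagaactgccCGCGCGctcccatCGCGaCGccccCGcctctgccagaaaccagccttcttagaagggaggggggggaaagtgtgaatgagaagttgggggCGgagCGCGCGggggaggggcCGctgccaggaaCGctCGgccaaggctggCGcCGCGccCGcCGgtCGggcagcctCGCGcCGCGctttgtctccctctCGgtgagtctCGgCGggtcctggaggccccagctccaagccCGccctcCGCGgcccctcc
Nanog: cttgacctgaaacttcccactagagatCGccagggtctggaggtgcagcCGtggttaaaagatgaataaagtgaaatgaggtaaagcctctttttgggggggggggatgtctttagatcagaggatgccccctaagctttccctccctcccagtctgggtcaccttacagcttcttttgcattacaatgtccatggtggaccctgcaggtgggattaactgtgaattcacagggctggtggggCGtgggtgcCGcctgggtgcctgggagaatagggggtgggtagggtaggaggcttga
Olfr1057: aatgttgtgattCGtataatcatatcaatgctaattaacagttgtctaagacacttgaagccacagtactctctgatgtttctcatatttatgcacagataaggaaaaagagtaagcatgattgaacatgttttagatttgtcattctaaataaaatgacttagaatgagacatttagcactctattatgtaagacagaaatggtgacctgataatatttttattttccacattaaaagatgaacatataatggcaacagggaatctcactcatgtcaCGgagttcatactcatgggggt

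The Socs3 window held 31 CpG dinucleotides, the Nanog window 4 and the Olfr1057 window 2, with ratios of 0.77, 0.19 and 0.25. Nanog, with 3 gene-flanking peaks, a gene-end pileup of 58 and a CpG-poor promoter window, shows that single genes can depart from the densities above. Socs3, a feedback inhibitor of JAK and STAT signalling, had a gene-end peak with a pileup of 138, and the olfactory receptor gene Olfr1057 had none.

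Most genes had no gene-flanking peak. A peak counted for its nearest protein-coding gene only, and 5293 of 20661 genes (25.6%, Wilson 25.03 to 26.2) had at least 1. Of these, 3957 had 1 peak, 1055 had 2, 222 had 3, 46 had 4 and 13 had 5. The 13 genes with 5 peaks were 1700122O11Rik, 8030462N17Rik, Arl14epl, Commd7, Deptor, E2f2, Enah, F2rl1, Gm52796, Id1, Lbx1, Npepps and Pdpn. Id1 encodes an inhibitor of basic helix-loop-helix transcription factors and is a target of BMP signalling. Its 5 flanking pileups were 59, 43, 35, 40 and 22, in order along chromosome 2, and its gene-end peak reached 38. Deptor, an inhibitor of mTOR, had flanking pileups of up to 129 and a gene-end pileup of 94. Enah, which encodes an actin regulator, had flanking peaks of 41, 12, 27, 102 and 34 and no gene-end peak, as did the podoplanin gene Pdpn, whose tallest flanking peak was 23.

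Flanks of pluripotency genes held open sites more often than those of genes at large. Of 38 core and naive pluripotency genes on chromosomes 1 to 19, 29 had a gene-flanking peak (76.3%, Wilson 60.8 to 87.0), where 25.6% of all protein-coding genes did. They had 56 such peaks, or 113 per Mb (85.2 to 146), against 36.7 over all genes, a measure that allows for the length of the flanks. The median pileup was 38 against 22 over all gene-flanking peaks, and 7 of the 56 reached 100. Their folds ran from 2.22 at a Tet1 peak (background 21.1) to 13.9 at a Dppa3 peak (background 3.17). The median fold of all gene-flanking peaks was 6.37. The part of background in the taller pileups was not tested. With a pileup of at least 20 required, 21 of the 38 genes (55.3%) had one, against 15.6% of all genes. The lists were chosen with earlier results of these data known, so these counts describe the lists and are not a test.

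Among the 19 core genes 14 had a gene-flanking peak. Nanog, a homeobox factor of the naive state, had the tallest, a peak with a pileup of 192 (166 to 221) and a fold of 8.88 at chr6:122702264-122703223, on the start side and 4.27 kb outside the gene. Its 2 peaks on the far-end side reached 13 and 35, and its own gene-end peak 58, so the flank held a taller peak than the gene ends. Peaks inside the gene were not compared. Sox2, whose flanks lie inside an annotated gene that is not protein-coding, had 4 flanking peaks, of 23 and 44 on the start side and of 51 and 17 on the far-end side, all below its gene-end pileup of 119. Pou5f1, which encodes OCT4, had 1 low flanking peak of 18 (10.7 to 28.4) at 9.14 kb on the start side, against 152 at its gene end. Dppa5a, which encodes an RNA-binding protein of pluripotent cells, had 4, the tallest at 67. Mycn, a MYC family gene, had 1 peak of 112 (92.2 to 135) at 8.16 kb on the far-end side, and Jarid2, an accessory subunit of the Polycomb complex PRC2, had peaks of 102 and 62 on the start side.

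Among the 19 naive genes 15 had a gene-flanking peak, and Socs3 had most, with 4, of 131 (110 to 155) and 60 on the start side and of 111 (91.3 to 134) and 37 on the far-end side. The LIF receptor gene Lifr had a peak of 112 (92.2 to 135) at 8.21 kb and one of 31 at 5.19 kb, both on the start side. Its gene-end pileup was 13. These values refer to the outermost annotated ends of Lifr. Its RefSeq start windows lie inside the gene, at chr15:7129322-7129621 and chr15:7140292-7140591, so 13 is not the pileup there. Il6st, which encodes the co-receptor gp130, had flanking peaks of 99 and 31. Klf2, a Krüppel-like factor of naive cells, had 1 of 135 (113 to 160) at 2.45 kb and 1 of 45 at 7.60 kb, both on the start side. Zfp42, which encodes REX1, had 3 on its far-end side between 4.96 and 7.62 kb, of 56, 36 and 43. Fgf4 and Tfcp2l1 also had 3 each, the tallest at 63 and 90. Dppa3, with no peak at its ends, had flanking peaks of 63 (48.4 to 80.6) and 57 (43.2 to 73.9). Esrrb, also with none at its outermost annotated ends, had 1 of 16, and Klf4 had no gene-flanking peak. Transcript starts inside Dppa3 or Esrrb, if any, were not examined.

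**Figure D4:**
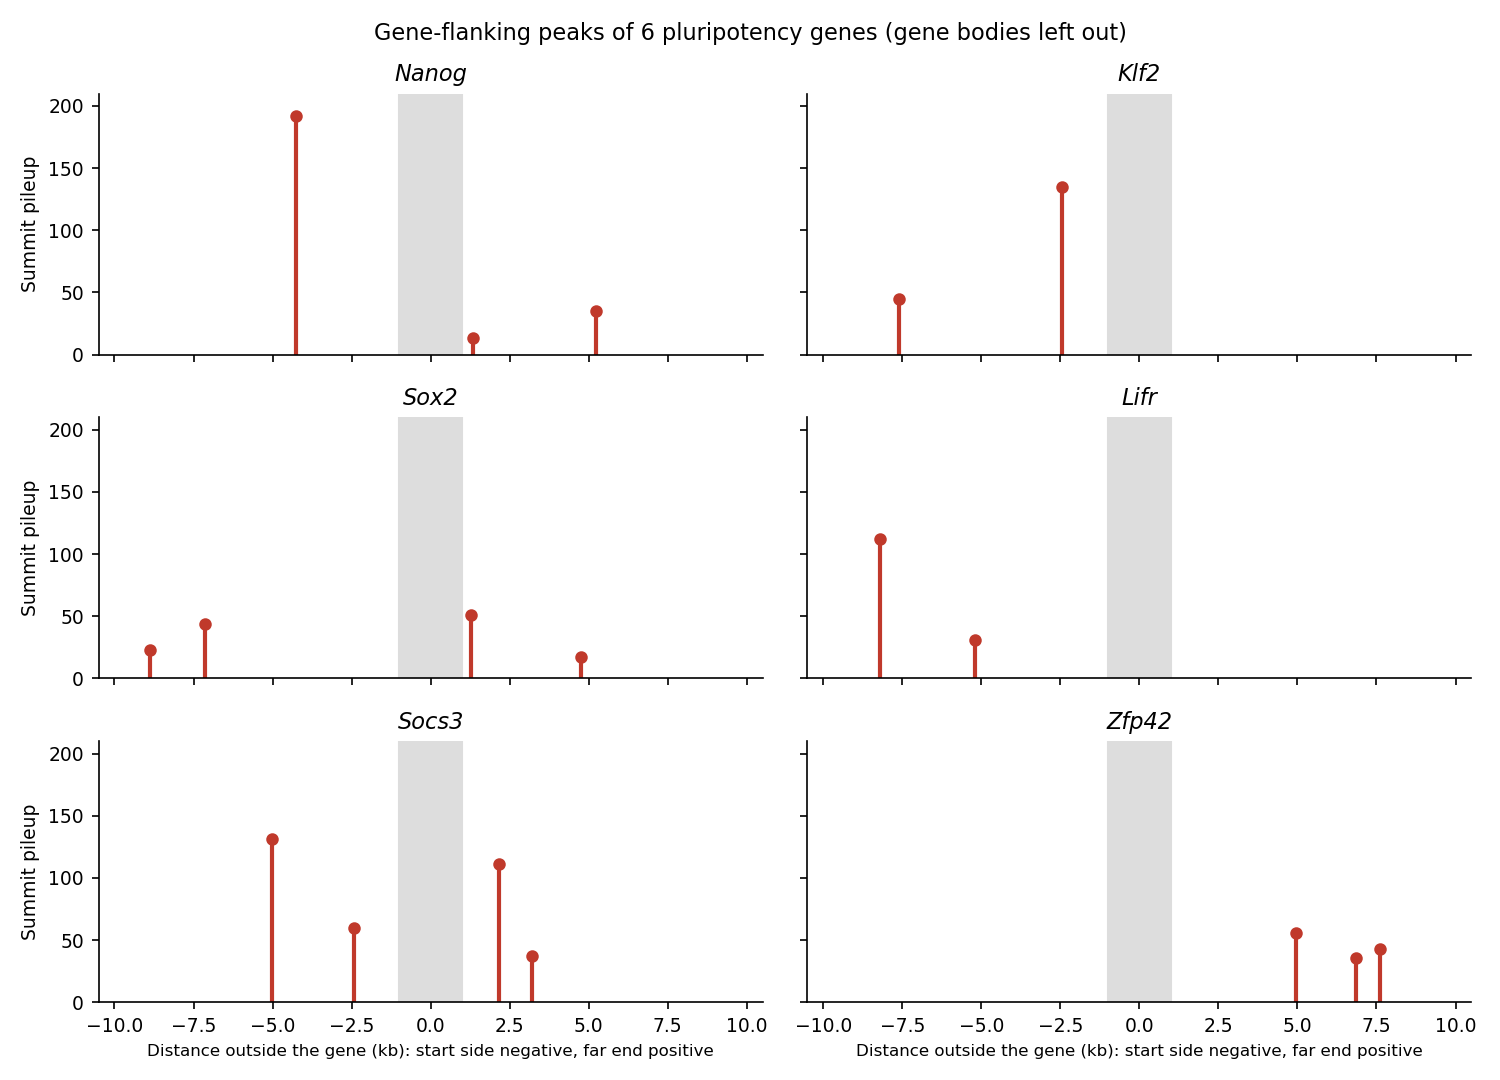
Gene-flanking peaks of Nanog, Sox2, Socs3, Klf2, Lifr and Zfp42: summit pileup (y axis) against distance outside the gene in kb (x axis), negative on the start side and positive on the far-end side, with the gene body left out and the grey band marking the 1 kb next to either end. The tallest is the Nanog peak of 192 on the start side, and Klf2 and Lifr have flanking peaks on the start side only, Zfp42 on the far-end side only.

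Formative and primed genes, which mark the passage out of the naive state, had a gene-flanking peak in 11 of 18 cases (61.1%, 38.6 to 79.7), at 84.3 per Mb (50.7 to 132). Lefty2, a secreted antagonist of Nodal, had the tallest, of 210 (183 to 240) at 3.65 kb, and a second of 51, with no peak at its own ends. Nodal itself had 1 of 146 with a gene-end pileup of 64. Foxd3 and Fgf15 had 3 each, with tallest peaks of 51 and 40. Germ-layer genes had one in 16 of 32 cases (50.0%, 33.6 to 66.4), at 64.9 per Mb (42.4 to 95.03). Over all protein-coding genes the share was 25.6% and the density 36.7 per Mb, below both lists. The germ-layer peaks had a median pileup of 21, near the 22 of all gene-flanking peaks, and none of the 26 reached 100. Eomes, a T-box factor of the primitive streak, had 4, of 28, 31, 23 and 29, and Sox1 and Hand1 had 3 each. A flanking peak of at least 20 was found at 28.1% of germ-layer genes and 55.3% of core and naive genes, against 15.6% of all genes.

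Polycomb genes had a gene-flanking peak in 15 of 25 cases (60.0%, 40.7 to 76.6), at 102 per Mb (64.8 to 153) and with a median pileup of 20. Cbx8 and Eed had 3 each, none above 20, and Jarid2, which the core list also holds, had the tallest. Phc1, a subunit gene of PRC1, had 2 with the taller at 86. Genes of H3K36 methylation had one in 4 of 13 cases (30.8%, 12.7 to 57.6), an interval that includes the 25.6% of all genes. Nsd1, the tagged gene, had peaks of 28 (18.6 to 40.5) at 9.92 kb and of 35 (24.4 to 48.7) at 3.82 kb, both below its gene-end pileup of 78. Setmar had 2 with the taller at 26, and Setd2, the trimethylase of the same lysine, had 1 of 44. Kdm2b, a demethylase gene that the Polycomb list also holds, had 1 of 37.

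Ribosomal protein genes had a gene-flanking peak in 27 of 73 cases (37.0%, 26.8 to 48.5). They had little free flank, a median of 5.61 kb per gene against 9 kb over all genes, and per Mb their density of 92.0 (65.4 to 126) was above that of all genes. Rpl21 and Rpl38 had 3 each and Rps14 had 2, of which the taller reached 89. Olfactory receptor genes had one in 149 of 1100 cases (13.5%, 11.6 to 15.7), at 11.2 per Mb (9.57 to 13.1), although 20 of them (1.82%) had a gene-end peak. Olfr503 had 3, all at 9, and Olfr1057 had 2, of 59 and 49. Adult tissue genes had one in 2 of 20 cases (10.0%, 2.79 to 30.1), the myelin gene Mbp and the GABA-synthesis gene Gad1, and that interval includes the share of all genes.

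**Figure D5:**
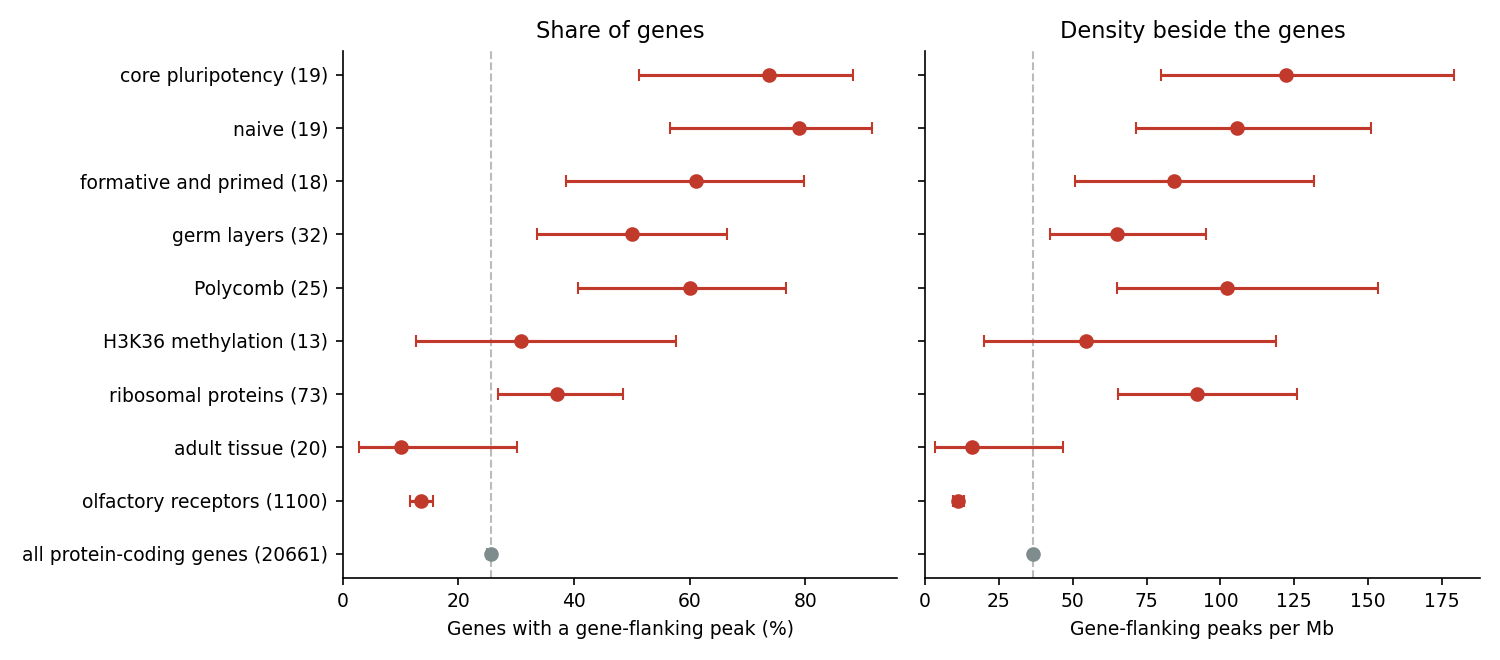
Share of genes that are nearest gene to a gene-flanking peak (left, with Wilson 95% intervals) and gene-flanking peaks per Mb of reachable sequence (right, with exact Poisson 95% intervals) for 9 gene lists, with the number of genes in brackets, and all protein-coding genes (grey, dashed line). Core and naive genes lie highest on the left at 73.7% and 78.9%, and olfactory receptor genes lowest on the right at 11.2 per Mb.

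The 10 tallest gene-flanking peaks did not include one at a core or naive pluripotency gene. These genes held few gene-flanking peaks of any height, 56 of 6982. Of the gene-flanking peaks with a pileup of 100 or more they held 7 of 217, which is a larger share. Their absence from the 10 tallest thus does not mean that their peaks were low. The highest pileup was 491 (449 to 536), in a peak 352 bp wide at chr12:120028669-120029020, 7.43 kb beyond the far end of Tmem196, whose own gene-end peak reached 19. Next came peaks of 411 near Gm45871, 226 near Gm40363, 222 near Rimbp3, 218 near Btbd16, 216 near Zfp72, 212 near Nkain1, 210 near Lefty2, 206 near Fam25c and 205 near Gm40369. By fold the highest was 34.8, in a peak with a pileup of 200 at 6.08 kb from the vomeronasal receptor gene Vmn1r204, followed by 30.6 near Btbd16, 29.9 near Nkx2-6, 28.8 near Tmem196, 27.5 near Cd209a, 22.6 near Gm45871, 21.5 near Shld2, 20.7 near both P4ha2 and LOC115488129, and 20.4 near Cerk. The 10 tallest peaks and the 10 with the highest fold shared 3. Read filters and the handling of repeated sequence were not given in the sources used here, and their part in these extreme peaks was not tested.

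Gene-flanking peaks stood close to other peaks. The median gap to the next peak was 4784 bp (4695 to 4884), against 6028 bp in gene bodies, 7005 bp at 10 to 100 kb, 23847 bp over 100 kb away and 5868 bp at gene ends. The next peak lay within 2 kb in 23.9% of cases (22.9 to 24.9). That share was 22.5% at gene ends, 20.2% in bodies, 19.3% at 10 to 100 kb and 9.92% over 100 kb away. Next to a gene-flanking peak stood a gene-end peak in 41.9% of cases and another gene-flanking peak in 32.5%. A gene-end peak was next in 38.2% of cases at gene ends and 23.8% in bodies. The rule itself places gene-flanking peaks within 10 kb of a gene end. In 1289 cases (18.5%, 17.6 to 19.4) a protein-coding gene end lay within 10 kb on either side, and there the median pileup was 24, against 22 in the other 5693. Bodies of lncRNA genes held 732 of the peaks (10.48%, 9.79 to 11.2), with a median pileup of 24, and 6192 (88.7%) lay outside every annotated gene, with one of 22.

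Among chromosomes the density beside genes varied by 1.60 times, from 30.1 peaks per Mb (27.6 to 32.7) on chromosome 7 to 48.1 (44.2 to 52.2) on chromosome 11, around a median of 37.3. The median pileup lay between 19 on chromosome 14 and 24 on chromosomes 4, 15 and 17.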

How the data were processed

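ATAC-seq was done in the 1 sample used, the untreated cells at 0 h. Per the submitters' processing notes the tools were MACS2 2.2.6, Bowtie2 2.3.4.1, deepTools 3.2.1, SAMtools 1.9 and bcl2fastq 2.20.0.422, on GRCm38.p6 and mm10. Read filters, the Tn5 shift and the total read number were not given in the sources used here. Peaks deposited for this sample alone carry the authors' score, their fold ratio over local background, and their -log10 p and -log10 q, with q up to 0.05.

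Summit pileups were recovered from the authors' fold and -log10 p (a Poisson tail), and were whole within 0.01 in 77626 of 77629 peaks. Genes were 47038 RefSeq genes of GRCm38.p6 on chromosomes 1 to 19, of which 20661 are protein-coding. Reachable sequence was counted by base between the first and last annotated gene of a chromosome, and peaks were placed by their whole interval. Density ratios carry exact binomial intervals and medians carry order-statistic intervals.

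Named genes were those nearest to the 10 tallest and the 10 highest-fold peaks, the genes with most flanking peaks (ties at 5 peaks named together), the leading 3 of each list, core and naive genes by their peaks, and Pou5f1, Sox2, Nanog, Klf4, Esrrb, Zfp42 and Nsd1. Other genes and the height limit of 50 were chosen after values were seen. The members and lists were chosen with earlier results of these data known. Of the 40 listed core and naive genes 38 were matched on chromosomes 1 to 19, and of 20 formative and primed genes 18. Jarid2, Kdm2b and Alb each stand in 2 lists. On simulated data 5000 of 5000 pileups and 1000 of 1000 placements were recovered. The alternatives varied the q and height limits, the placement rule, the outer distance, the genes that exclude a peak and extreme peaks. Calculations ran under Python 3.11.15 with scipy 1.17.1, pandas 2.3.3, numpy 2.4.6 and matplotlib 3.10.9.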

Additional observations from a re-analysis of the deposited data

Results flagged for a closer look

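Data outside the chromosomes of the report also held such sites. The same rule found 167 gene-flanking peaks on chromosome X, or 13.9 per Mb of reachable sequence (exact Poisson 11.8 to 16.1). That is below the lowest density among chromosomes 1 to 19, 30.1 per Mb on chromosome 7. Their median pileup was 20 and their median fold 6.88. The number of X copies in these cells was not examined, and its part in the lower density was not tested.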

How the results depend on the processing

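No paired analysis was possible because each group has 1 sample. Of 76 values recomputed for 11 results, 35 counted as unchanged and 41 as moved. Unchanged meant inside the 95% interval of the main value, except for the number of peaks, which was held to a looser fold limit. Under that limit the 5644 peaks with -log10 q of at least 5 counted as unchanged from 6982. With -log10 q of at least 5 the gene-flanking peaks had 29.6 per Mb, a median pileup of 26, fold of 7.24 and width of 463 bp. The start-side share was 47.9%, the share beside genes with a gene-end peak 74.6%, and 21.9% of all and 57.9% of core and naive genes had a flanking peak. With a pileup of at least 20 there were 3989 peaks, at 20.9 per Mb, with a median pileup of 35, fold of 8.49 and width of 505 bp. The density ratio of 1 to 2 kb over 9 to 10 kb was 1.24, the start-side share 50.5%, the share beside genes with a gene-end peak 75.6%, and 15.6% of all and 55.3% of core and naive genes had one. With an outer limit of 5 kb there were 3568 peaks (4.75% of peaks), at 35.8 per Mb, with a median pileup of 23, fold of 6.01 and width of 403 bp. The start-side share was 40.8%, the share beside genes with a gene-end peak 76.1%, and 15.2% of all and 55.3% of core and naive genes had one. Placing peaks by the summit gave 9.75% of peaks, 38.4 per Mb, 78.3% beside genes with a gene-end peak and 26.6% of all genes with one. Excluding peaks near protein-coding ends only gave 10.7% of peaks, 39.6 per Mb, a median pileup of 23, a width of 423 bp and 28.3% of genes. Excluding the bodies of genes of every kind gave 8.24% of peaks, a start-side share of 44.5% and 23.1% of genes. Without the 0.1% of peaks with the highest fold and the 1% widest, 74.2% lay beside genes with a gene-end peak. Stricter limits and a shorter window keep fewer peaks by construction. Under every one of these settings core and naive genes had a flanking peak more often than all genes. Depth limits what is listed: sites with a pileup below 6 were not detectable, the floor is higher where the background is higher, and 42.9% of gene-flanking peaks lay under 20. With 1 library no value has a replicate check.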
